A study of Mus musculus with 4 samples.

Results

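The 9 complement genes described here are C1qa, C1qb, C1qc, C3, C4b, Cfb, Cfp, C3ar1 and C5ar1. They were chosen by symbol from the 30028 genes listed in single-cell RNA counts of mouse lung, and all 9 were listed in every library. The study crossed loss of FUNDC1, a receptor that marks damaged mitochondria for autophagy, with HySu, a model of pulmonary hypertension that combines hypoxia with 3 weekly doses of the VEGF receptor blocker SU5416. Wild-type mice were kept in normoxia (NW) or exposed to HySu (HSW), and so were FUNDC1 knockout mice (NK and HSK), with vehicle given to the normoxia mice. All mice were aged 11 weeks, and each group was 1 library of cells pooled from 5 mice, so there is no replicate and no p-value is given. The series title names endothelial deficiency, but which cells lost the gene, and through which Cre or promoter, is not in the labels. Where 4 values follow each other they are in the order NW, NK, HSW and HSK.

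Complement is a cascade of plasma and tissue proteins that marks particles and dying cells for uptake and recruits leukocytes. The classical pathway opens when C1q, a hexamer built from the A, B and C chains, binds its target and C1r and C1s cleave C4 and C2. C3 is the central thioester protein on which all pathways converge. Factor B (Cfb) forms the alternative pathway convertase, and properdin (Cfp) stabilises it. The released fragments C3a and C5a act through the receptors C3ar1 and C5ar1. Most circulating complement is made in liver, but macrophages, fibroblasts and alveolar epithelium also make components locally.

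The 4 libraries held 4128 to 9164 cells, with 41308071 to 63501686 unique molecular identifiers (UMIs, counted transcript molecules). Levels are given as CPM, the UMIs of a gene per 1000000 UMIs of the cells concerned, and square brackets hold 95% intervals of counting error alone. Over all cells kept, Fundc1 stood at 43.4 CPM in NW and 39.1 in HSW, against 1.05 in NK and 0.226 in HSK. The low level was not limited to endothelial cells: alveolar macrophages, for example, held 628 and 528 Fundc1 UMIs, or 51.7 and 53.2 CPM, in the wild types and 16 and 2 UMIs in the knockouts, and endothelial cells held 8 and 79 UMIs against 1 and 0. Cells with marker genes of a second lineage were removed, at 27.7, 33.9, 20.7 and 13.5% of each library. Library pairs shared 20 to 70 cell barcodes. Clusters were named from marker genes after the complement genes had been taken out of the clustering, and 13 classes with at least 30 cells in each library were compared. Under HySu the median of all genes tested lay below 0 on the log2 scale in every one of the 13 classes, from -0.12 in endothelial cells to -1.04 in club cells between HSW and NW, and from -0.21 to -1.30 in the same classes between HSK and NK. Each HySu ratio is therefore to be read beside that median or beside the ratio under TMM scaling, which brings the median close to 0.

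The C1q genes are neighbours. C1qb, C1qc and C1qa lie on the reverse strand of chromosome 4 (GRCm38) at chr4:136880129-136886187, chr4:136889804-136893065 and chr4:136895917-136898803, within 18.7 kb, and no other annotated gene overlaps them. The other members are also on the reverse strand: C4b and Cfb at chr17:34728380-34743882 and chr17:34856374-34862518, C3 at chr17:57203970-57228136, Cfp at chrX:20925454-20931555, C3ar1 at chr6:122847138-122856161 and C5ar1 at chr7:16246743-16259540. Cfb shares its strand and part of its span with the annotated genes Gm20547 and Mir6972, so reads of these could be divided. The C1qb and C1qc promoters are shown because the 3 chains were found in the same cells. The sequences below are from RefSeq (GRCm38.p6, reverse strand, chr4:136886151-136886450 for C1qb and chr4:136892865-136893164 for C1qc), from 250 bases before the start to 50 after it. Capitals mark GGAA, the core of ETS factor sites such as that of the myeloid factor PU.1, and TGCTGA, the core of MAF factor sites, each searched on both strands as GGAA or TTCC and as TGCTGA or TCAGCA.
C1qb: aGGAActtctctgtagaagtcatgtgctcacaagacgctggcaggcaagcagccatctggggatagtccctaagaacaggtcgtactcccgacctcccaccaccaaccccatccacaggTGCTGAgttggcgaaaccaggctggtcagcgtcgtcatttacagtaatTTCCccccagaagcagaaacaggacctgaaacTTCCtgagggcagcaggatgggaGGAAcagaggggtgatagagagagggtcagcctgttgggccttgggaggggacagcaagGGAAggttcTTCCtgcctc
C1qc: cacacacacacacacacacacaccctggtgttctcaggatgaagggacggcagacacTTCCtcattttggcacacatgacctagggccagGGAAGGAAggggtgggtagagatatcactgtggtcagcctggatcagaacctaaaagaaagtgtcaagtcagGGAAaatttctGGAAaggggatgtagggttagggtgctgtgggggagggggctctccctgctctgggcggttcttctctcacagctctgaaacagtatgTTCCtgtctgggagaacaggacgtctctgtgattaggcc
Each window held 6 matches to the ETS core, against a median of 3 over 32851 promoters of the same length, of which 96.0% held at least 1. The C1qb window held 1 MAF core, at position -131 from the start, and the C1qc window held none. Of all promoters, 19.5% held one. The counts are not particular to C1q: C3, Cfp, C3ar1 and C5ar1 held 3, 3, 7 and 8 ETS cores. C3, C3ar1 and C5ar1 also held 1 MAF core each. No promoter sequence of C1qa was available. The search describes letters in these windows and says nothing about binding.

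The members had their highest mean levels in 3 kinds of cell. C1qa, C1qb, C1qc, C3ar1 and C5ar1 were highest in interstitial macrophages, the macrophages of the lung tissue outside the airspaces. C3 and C4b were highest in adventitial fibroblasts, the collagen-producing cells around vessels and airways. Cfp was highest in conventional dendritic cells type 2 (cDC2), ahead of classical monocytes and interstitial macrophages. Cfb had no clear peak. Its mean was highest in adventitial fibroblasts, but the span there, 2.80 to 17.6 CPM, overlapped that of alveolar macrophages, 5.44 to 12.5 CPM, which were higher in HSK. The adventitial level rested on 8, 7, 4 and 1 UMIs, and after cells were thinned to equal depth the interval of its share of cells there overlapped that of T and natural killer cells in every library.

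**Figure D1:**
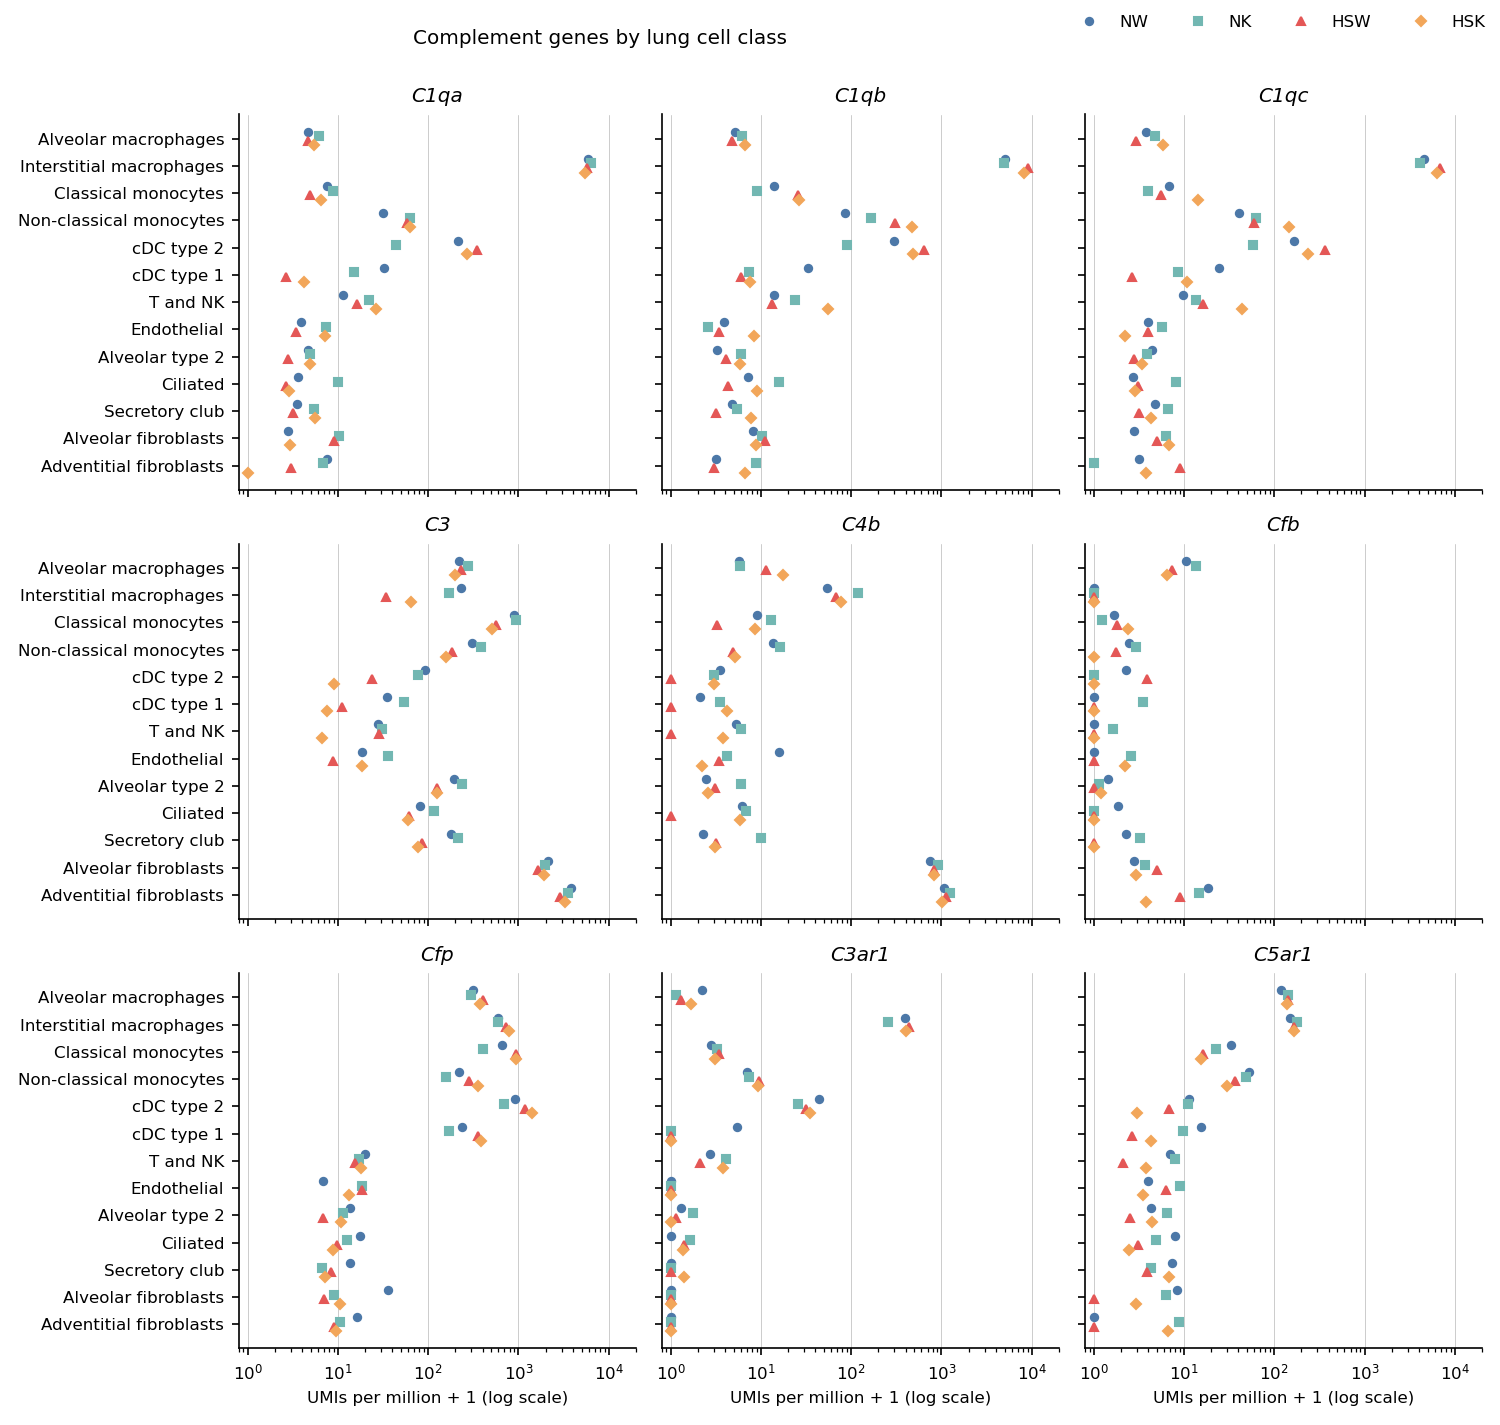
Level of each complement gene (CPM plus 1, log scale) in 13 lung cell classes; each point is 1 library, and cDC stands for conventional dendritic cells. The 3 C1q chains and C3ar1 peak in interstitial macrophages, C3 and C4b in both kinds of fibroblast, and Cfp and C5ar1 across several myeloid classes.

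C1q transcripts filled interstitial macrophages in all 4 libraries. The class joined a cluster of 222 cells and another of 58. On a scale up to 1, their scores for interstitial macrophage markers were 0.325 and 0.813. The next scores, for non-classical monocyte markers, were 0.222 and 0.153, so the larger cluster was named less clearly. C1qa stood at 5891, 6372, 5727 and 5464 CPM, from 70, 74, 85 and 51 cells. C1qb stood at 5110 in NW and 4967 in NK but at 9150 in HSW and 8131 in HSK. C1qc stood at 4550 in NW and 4076 in NK, and at 6920 in HSW and 6278 in HSK. For C1qb and C1qc both HySu libraries lay above both normoxia libraries, while for C1qa the HySu libraries lay slightly below. At least 1 UMI of every chain was found in 73 of 74 cells of NK and in all 70, 85 and 51 cells of the other libraries. Interstitial macrophages held 61.3 to 79.7% of the UMIs of each chain among the cells kept, and clusters that met no class name held 9.85 to 25% of them.

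C1qb, which encodes the B chain, was 1.79-fold higher in HSW than in NW [1.70, 1.88] and 1.64-fold higher in HSK than in NK [1.54, 1.74]. C1qc, the C chain, had ratios of 1.52 [1.44, 1.61] and 1.54 [1.44, 1.65]. For C1qa, the A chain, the ratios were 0.972 [0.922, 1.02] and 0.857 [0.806, 0.912], and these turned to 1.29 and 1.20 under TMM scaling. C1qb and C1qc passed 2-fold under TMM, with C1qb at 2.37 and 2.29 and C1qc at 2.02 and 2.15. The median of all genes in this class was -0.38 on the log2 scale between HSW and NW and -0.49 between HSK and NK, where C1qa stood at -0.04 and -0.22. The relation of the chains to each other needs no scaling. C1qa made up 37.9% [36.8, 39.0] of the C1q UMIs of interstitial macrophages in NW and 41.3% [40.1, 42.6] in NK, but 26.3% [25.5, 27.1] in HSW and 27.5% [26.4, 28.6] in HSK. The C1qb share was 32.9 and 32.2% in the normoxia libraries and 42.0 and 40.9% in the HySu libraries. Transcripts may be captured unequally, so these shares are compared between libraries and not between chains.

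The lower C1qa share under HySu was present in the medians of single cells and in both clusters of the class. Single cells overlapped between the libraries, with an NW cell at 9.26% and an HSW cell at 58.5%. Among cells with at least 20 C1q UMIs, the median share was 38.4% in NW and 41.5% in NK, and 26.1% in HSW and 26.6% in HSK. The middle part of the cells, from the lower to the upper quartile, spanned 31.2 to 44.5% in NW and 35.7 to 48.9% in NK, against 22.5 to 30.8% in HSW and 21.0 to 32.9% in HSK. In the larger cluster the share was 38.8% in NW and 40.2% in NK, against 26.0% in HSW and 27.2% in HSK. In the smaller cluster, led by Pf4, Ccl8, Stab1 and Folr2, it was 35.3% and 43.1%, against 27.6% and 28.7%, in 9 to 23 cells a library. Over every cell that passed the first quality filter, with no mixed cell removed and no class named, it was 36.1% in NW and 38.9% in NK, and 26.0% in HSW and 27.3% in HSK. Club cell markers, summed over 5 genes, moved with HySu in this class, at 1621, 1646, 4164 and 4141 CPM, and their part in the C1q levels was not tested. Neither was that of the median mitochondrial share, which was 1.46, 0.994, 2.18 and 1.87% in this class and higher in both HySu libraries than in both normoxia libraries in 12 of the 13 classes. The class's own 9 markers summed to 8673, 11888, 8254 and 10831 CPM and did not separate HySu from normoxia.

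**Figure D2:**
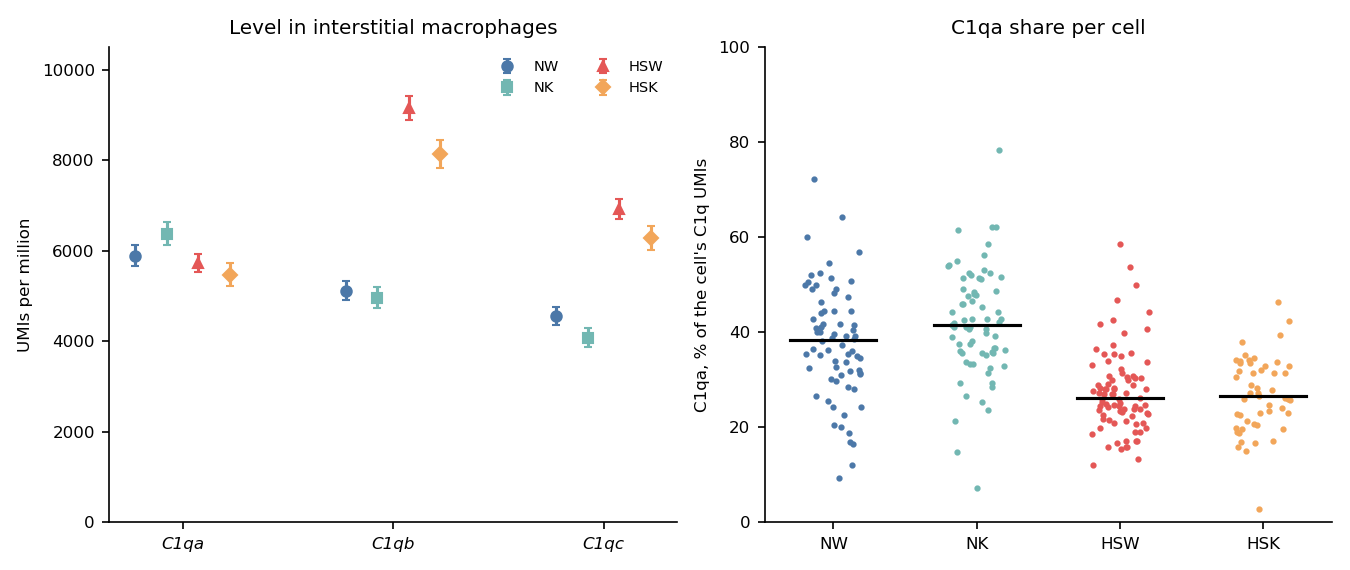
Left, level of each C1q chain in interstitial macrophages by library (CPM), with 95% intervals of counting error. Right, C1qa as a percentage of the C1q UMIs of each interstitial macrophage with at least 20 of them; lines are medians, at 38.4% and 41.5% in the normoxia libraries and 26.1% and 26.6% in the HySu libraries.

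Alveolar macrophages, the resident phagocytes of the airspace, carried almost no C1q. C1qa was at 3.62, 5.11, 3.63 and 4.44 CPM, close to 3.71, 3.85, 1.83 and 3.85 CPM in alveolar type 2 cells, an epithelium that should lack the gene. After each cell was thinned to 4726 UMIs, 1.64 to 2.41% of alveolar macrophages and 0.812 to 2.25% of type 2 cells had a C1qa UMI, so the macrophage value is read as background. Before thinning these shares were 3.85 to 4.80% and 1.35 to 2.93%, at median depths of 8688 to 11726 and 4578 to 7043 UMIs.

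In cDC2, antigen-presenting cells that prime helper T cells, C1qb stood at 297, 89.7, 644 and 486 CPM. These UMIs came from few cells: all 3 chains were found in 10 of 105, 3 of 84, 11 of 93 and 10 of 62 cells. The 5 cells with most C1qb held 79.3, 100, 80.9 and 80.6% of it. Nearly all of it lay in 1 of the clusters of the class, where C1qb counted 231, 41, 439 and 242 UMIs in 38, 32, 42 and 47 cells. That cluster was led by Mgl2, Ccl17 and Cd209a, and Mgl2 is also on the list of interstitial macrophage markers. The C1qb ratio of HSW to NW in cDC2 was 2.17 [1.85, 2.55], but it was 0.948 when cells were clustered at a resolution of 1.5, and C1qc went from 2.18 to 0.741. No direction is read from cDC2.

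Non-classical monocytes, the patrolling monocytes of blood vessels, held C1qb at 84.7, 163, 303 and 476 CPM. The HySu libraries lay above the normoxia libraries, with ratios of 3.57 [3.10, 4.11] in the wild type and 2.91 [2.34, 3.61] in the knockout. Of all genes tested in this class, 2.11% and 4.46% were past 2-fold higher in the same comparisons, and 9.7% and 15.2% lower. A C1qb UMI was found in 60 of 826, 48 of 439, 33 of 212 and 7 of 42 cells, or 6.45, 12.1, 12.3 and 16.7% after thinning against 0.883 to 1.87% of alveolar type 2 cells, and 1 cell held 29.1% of the UMIs in HSW and 50.9% in HSK. The mix of chains was not that of interstitial macrophages. C1qb made up 54.6 and 57.1% of C1q UMIs in NW and NK, and 72.5 and 69.9% in HSW and HSK. The cluster named non-classical also carried classical monocyte markers, which summed to 6458 CPM in NW and 5521 in NK against 9134 in HSW and 8244 in HSK. The part of this shift in the C1qb difference was not tested. The class also depended on the clustering. At a resolution of 1.5 a cluster of 1582 cells, led by Plac8, Pla2g7 and Aif1, scored highest for classical monocyte markers and second for non-classical ones, and was named classical, and the cluster still named non-classical held 264, 160, 65 and 4 cells, too few in HSK to compare. HSW against NW gave 11.5 [6.47, 21.3] there, from 47 and 17 UMIs. In T and natural killer cells, 14 of the 15 C1qb UMIs of NW, all 11 of HSW and 17 of the 19 of HSK came from a single cell, so ratios of the C1q chains in that class describe single cells.

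C3, the protein whose cleavage all complement pathways share, was highest in fibroblasts. Adventitial fibroblasts held 3837, 3502, 2884 and 3244 CPM. Alveolar fibroblasts, which lie beside the alveolar epithelium, held 2114, 1978, 1662 and 1927. Classical monocytes, the inflammatory monocytes of blood, came next among the classes compared, with 883, 935, 560 and 502. Their HySu libraries lay below both normoxia libraries, and the spans of the first 3 classes did not overlap. After thinning, a C3 UMI was found in 88.5 to 93.2% of adventitial fibroblasts, 80.3 to 93.9% of classical monocytes and 2.08 to 13.7% of T and natural killer cells, the background class. Without thinning these shares were 88.9 to 96.2%, 84.3 to 91.3% and 4.17 to 12.2%. Alveolar macrophages held 220, 272, 227 and 199 CPM and alveolar type 2 cells 194, 235, 125 and 125.

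Under HySu, C3 was below the normoxia value in 10 of 12 classes tested in the wild type and in 13 of 13 in the knockout. Under TMM scaling these counts were 9 of 12 and 10 of 13, and both fibroblast classes and ciliated cells turned to above 1 in the knockout. In adventitial fibroblasts the ratios were 0.751 [0.700, 0.806] and 0.926 [0.860, 0.998], or 0.915 and 1.18 under TMM. Classical monocytes had ratios of 0.635 [0.607, 0.664] and 0.538 [0.496, 0.582], and these remained below 1 under TMM at 0.806 and 0.704. On the log2 scale they stood at -0.66 and -0.90, where the median of all genes in that class stood at -0.35 and -0.43. C3 also lay below the median of all genes in non-classical monocytes, with ratios of 0.598 [0.518, 0.688] and 0.411 [0.288, 0.569].

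The lowest C3 ratio of HSW to NW among the 12 classes was in interstitial macrophages, at 0.147 [0.0824, 0.247]. The class counted 104, 63, 17 and 21 C3 UMIs, which is 227, 169, 33.4 and 63.6 CPM. HSK against NK gave 0.377 [0.218, 0.626]. Under HySu 17.9% of all genes in this class were past 2-fold lower in the wild type and 24.1% in the knockout, and 3.18% and 5.43% higher. These are small counts in few cells: 5 cells held 57 of the 104 UMIs of NW, and 1 cell held 13 of the 21 of HSK. After thinning, 34.9% of interstitial macrophages in NW and 38.1% in NK had a C3 UMI, against 11.9% in HSW and 9.80% in HSK, and the HySu shares lay within the intervals of the T and natural killer cell share of their own library. The unthinned shares were 32.9, 32.4, 15.3 and 11.8%. The larger cluster alone gave 214 CPM in NW and 34.5 in HSW, but 80.7 in NK and 68.2 in HSK, and 43 of the 63 UMIs of NK lay in the smaller cluster. In both dendritic classes C3 rested on few UMIs, with 72, 37, 16 and 4 in cDC2 and 30, 42, 6 and 2 in type 1. T and natural killer cells counted 31, 48, 25 and 2, so in the knockout the background moved the same way.

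**Figure D3:**
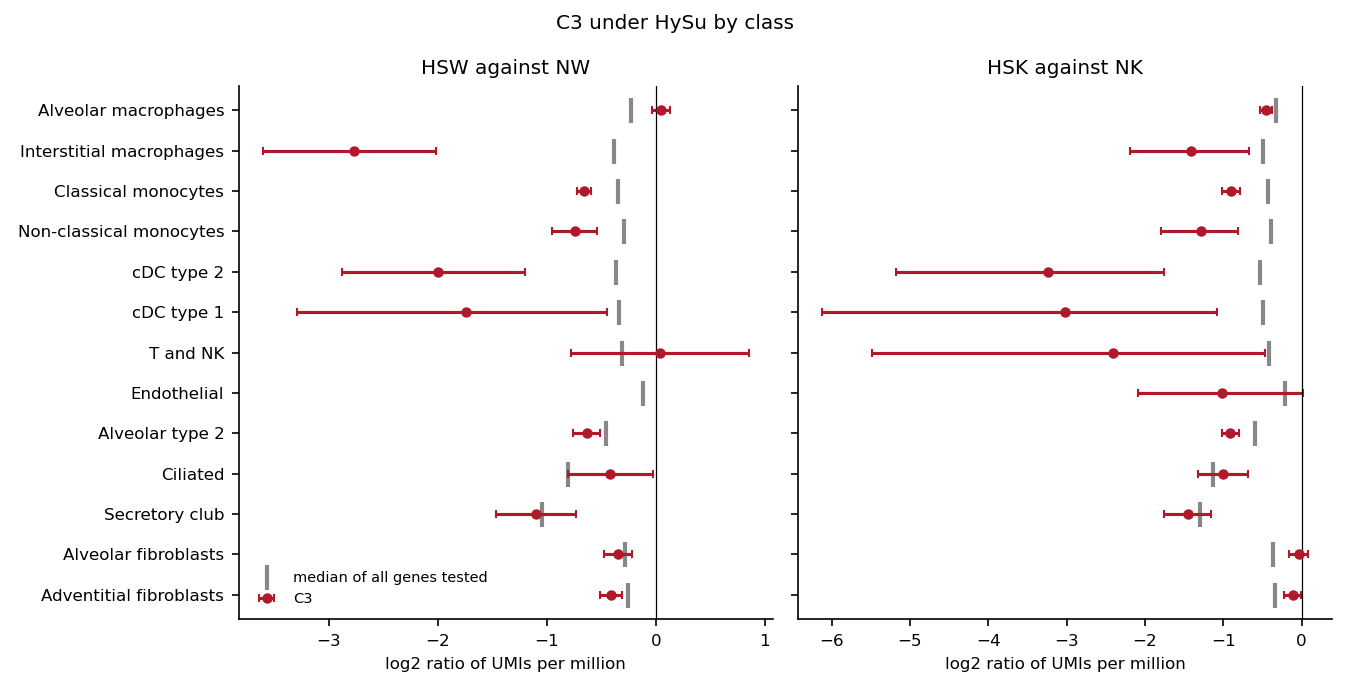
Ratio of C3 levels under HySu by class (log2 of the CPM ratio, HySu over normoxia), wild type at left and knockout at right, with 95% intervals of counting error; grey ticks mark the median of all genes tested in the class, and classes with fewer than 20 C3 UMIs in the pair have no point. C3 lies below the grey tick in both monocyte classes, interstitial macrophages, both dendritic classes and alveolar type 2 cells in both genotypes, and slightly below it in club cells. It lies above the tick in ciliated cells of both genotypes and in fibroblasts of the knockout.

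C4b, the classical pathway C4 of the mouse, was far higher in fibroblasts than in the other classes compared. Adventitial fibroblasts held 1064, 1249, 1129 and 1012 CPM and alveolar fibroblasts 744, 913, 827 and 831. The libraries overlapped closely in both classes and no ratio passed 2-fold. HSW against NW gave 1.06 [0.937, 1.20] and 1.11 [0.967, 1.28], and HSK against NK 0.810 [0.710, 0.923] and 0.910 [0.805, 1.03], which turned to 1.04 and 1.18 under TMM. The transcript is near-identical to that of its paralog C4a in places, since 35.2% of its 50-base windows, 16.5% of its 100-base windows and 8.26% of its 150-base windows also occur in the longest C4a transcript. Of the last 500 windows, 38.4% were shared at 50 bases, 12.6% at 100 bases and 0 at 150 bases. C4a counted 0 UMIs in adventitial fibroblasts of every library. The rule for reads that match both genes is not given, so whether reads of C4a stand under C4b cannot be told.

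Interstitial macrophages held C4b at 52.5, 118, 66.8 and 75.7 CPM, and it lay almost wholly in the smaller cluster. That cluster held 365 CPM over all libraries, against 2.25 in the larger one. The ratio of NK to NW was 2.24 [1.33, 3.86] from 44 and 24 UMIs, and the smaller cluster made up 23 of 74 cells in NK and 14 of 70 in NW. Within it C4b stood at 334 CPM [241, 452] in NK and 263 [167, 394] in NW, with overlapping intervals. Over the class, a C4b UMI was found in 5 of 70, 10 of 74, 5 of 85 and 6 of 51 cells. The 5 cells with most held 100, 81.8, 100 and 96% of these UMIs. The intervals do not cover this spread between cells. Alveolar macrophages held C4b at 4.69, 4.82, 10.5 and 16.7 CPM. The HySu ratios were 2.23 [1.60, 3.14] and 3.47 [2.62, 4.64], at a low level: thinned to equal depth, 1.19% and 1.37% of normoxia cells and 3.53% and 4.89% of HySu cells had a C4b UMI, against 0 to 2.42% of T and natural killer cells. Unthinned, the macrophage shares were 4.15, 4.23, 6.82 and 8.75%. Of all genes in alveolar macrophages, 1.8% were past 2-fold higher and 4.67% lower in the wild type, and 2.75% and 7.05% in the knockout.

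Cfb, the protease of the alternative pathway convertase, was rare. Its UMIs came mostly from alveolar macrophages, which held 69.3 to 77.2% of them, with 115, 172, 64 and 71. This was 9.47, 12.5, 6.45 and 5.44 CPM, and HSK against NK gave 0.433 [0.324, 0.574], or 0.534 under TMM, while HSW against NW gave 0.681 [0.494, 0.932]. Interstitial macrophages counted 0 Cfb UMIs in every library.

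Cfp encodes properdin, which myeloid cells store and release. It was found across the myeloid classes compared. Levels in cDC2 were 917, 697, 1182 and 1408 CPM. Classical monocytes held 652, 409, 932 and 934, interstitial macrophages 599, 589, 733 and 790, and alveolar macrophages 309, 298, 405 and 374. Conventional dendritic cells type 1, which cross-present antigen, held 236, 171, 357 and 382, and non-classical monocytes 221, 157, 284 and 357. In all 6 myeloid classes both HySu libraries lay above both normoxia libraries, while alveolar type 2 cells held 5.76 to 12.8. After thinning, 82.6 to 93.5% of cDC2 and 2.32 to 5.17% of alveolar type 2 cells had a Cfp UMI, against 75 to 93.5% and 4.06 to 6.44% before.

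For HSK against NK the Cfp ratio passed 2-fold in 4 of the 11 classes tested. It was 2.28 [2.12, 2.46] in classical monocytes, 2.27 [1.77, 2.89] in non-classical monocytes, 2.23 [1.73, 2.88] in dendritic cells type 1 and 2.02 [1.77, 2.30] in cDC2. Of all genes in classical monocytes, 3.15% were past 2-fold higher and 18.0% lower in that comparison, and 1.7% and 7.97% between HSW and NW. Between HSK and NK the shares were 5.24% and 22.6% in dendritic cells type 1, and 5.25% and 27.5% in cDC2. The Cfp ratio for HSW against NW was 1.43, 1.28, 1.52 and 1.29 in the same 4 classes. These directions were the same under TMM, at 2.80 to 3.07 and 1.59 to 1.95. Beside these ratios stand those of NK to NW, from 0.233 to 0.982. They were below 1 in 10 of 10 classes tested, and in 10 of 10 under TMM. The 10 included alveolar fibroblasts, alveolar type 2 cells, ciliated cells and T and natural killer cells, where Cfp was low, so low signals moved the same way. The 0.233 was that of alveolar fibroblasts, from 6 and 19 UMIs. In classical monocytes the value was 0.627 [0.592, 0.663]. HSK against HSW gave 1.00 [0.942, 1.07] there. Fundc1 (chrX:17556564-17572325) lies on the same chromosome as Cfp, and the part of this in the knockout ratios was not tested. Neutrophil markers in classical monocytes, summed over 7 genes, were 3418, 1073, 2151 and 2181 CPM, and their part in the Cfp values was not tested. Part of the cDC2 difference lay between clusters. The cluster led by Mgl2 and Ccl17 made up 32 of 84 cells in NK and 47 of 62 in HSK, and within it Cfp stood at 884 CPM in NK and 1519 in HSK.

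**Figure D4:**
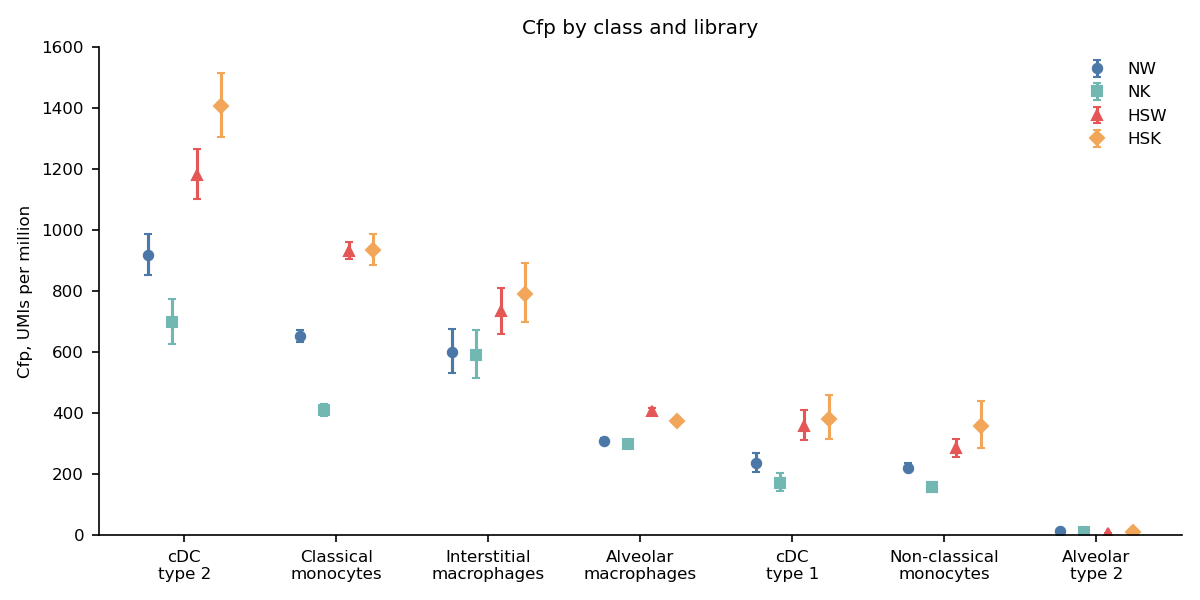
Cfp level (CPM) in 6 myeloid classes and alveolar type 2 cells by library, with 95% intervals of counting error; cDC stands for conventional dendritic cells. In each myeloid class the HSW and HSK points lie above the NW and NK points, and NK is the lowest or level with NW.

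The anaphylatoxin receptors differed in their spread. C3ar1, the receptor of C3a, was concentrated in interstitial macrophages, with 396, 254, 434 and 409 CPM. Next came cDC2 with 24.5 to 43.5, in the same cluster as their C1q, and non-classical monocytes with 5.96 to 8.65. Both fibroblast classes and endothelial cells counted 0 C3ar1 UMIs in every library. No C3ar1 ratio passed 2-fold. The NK level in interstitial macrophages was the low one, with 0.642 [0.496, 0.828] against NW, and HSK against NK gave 1.61 [1.23, 2.11], or 2.25 under TMM. After thinning, 69.8, 52.4, 76.1 and 78.4% of interstitial macrophages had a C3ar1 UMI, against at most 0.173% of alveolar type 2 cells. Unthinned, the values were 81.4, 52.7, 85.9 and 82.4%, against at most 0.313%.

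C5ar1, the receptor of C5a, was at a like level in both macrophage classes. Interstitial macrophages held 149, 179, 163 and 163 CPM, and alveolar macrophages 118, 140, 140 and 138. After thinning, 39.1 to 47.7% of alveolar macrophages and 0.812 to 2.94% of alveolar type 2 cells had a C5ar1 UMI, or 62.6 to 72.6% and 1.14 to 2.59% unthinned. No HySu ratio passed 2-fold in either class: HSW against NW gave 1.10 [0.786, 1.53] and 1.19 [1.10, 1.28]. Classical monocytes held 32.5, 21.8, 15.4 and 14.6. HSW against NW was 0.474 [0.361, 0.618], from 75 and 236 UMIs, or 0.602 under TMM, and HSK against NK was 0.667 [0.393, 1.08]. Of all genes in classical monocytes, 7.97% were past 2-fold lower and 1.7% higher between HSW and NW, with a median of -0.35 on the log2 scale. The neutrophil markers given with Cfp also differed between the libraries in this class, and their part in the C5ar1 values was not tested. Neutrophils, a textbook site of this receptor, numbered 13 to 32 cells a library and were not compared.

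Counted over members and classes, 65 of the 117 pairs had at least 20 UMIs for HSW against NW, and 4 were past 2-fold higher and 13 lower with an interval that excludes 1. Over all genes and the same classes 2.09% were past 2-fold higher and 14.1% lower. TMM scaling gave 9 higher and 9 lower, against 5.46% and 4.69% of all genes under the same scaling. For HSK against NK, 14 of 63 pairs were higher and 9 lower, against a background of 3.31% and 23.1%, and TMM gave 18 higher and 4 lower, against 8.68% and 6.51%. Of the 14 higher pairs, 9 were C1q chains in monocytes, cDC2 or T and natural killer cells, 4 were Cfp and 1 was C4b in alveolar macrophages. For NK against NW, 6 of 66 pairs were higher and 7 lower, against 4.18% and 2.24% of all genes, and TMM gave 3 and 8, against 2.93% and 2.95%. For HSK against HSW, 9 of 58 were higher and 1 lower, against 2.58% and 2.69%, and TMM gave 10 and 1, against 2.62% and 2.61%. The 4 comparisons share libraries in pairs, so they are not independent of each other. Many of these pairs are the low or single-cell signals described above: with at least 50 UMIs required, the pairs past 2-fold numbered 11, 18, 5 and 2 in the same order.

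In interstitial macrophages, 5 members had knockout to wild-type ratios between 0.889 and 1.21. C1qa, C1qb and C1qc gave 1.08, 0.972 and 0.896 for NK against NW and 0.954, 0.889 and 0.907 for HSK against HSW. The chains counted 1523 to 4656 UMIs a library, so a ratio this near 1 can still have an interval that excludes 1. Of all genes in this class, 7.09% were past 2-fold higher and 4.37% lower for NK against NW. For HSK against HSW the shares were 4.68% and 4.75%. C5ar1 gave 1.21 [0.847, 1.71] and 1.00 [0.698, 1.43], and Cfp 0.982 [0.819, 1.18] and 1.08 [0.917, 1.27]. The others lay further from 1 under normoxia. C3ar1 gave 0.642 [0.496, 0.828] for NK against NW and 0.941 for HSK against HSW, where the interval included 1, and C4b 2.24 [1.33, 3.86] and 1.13 [0.648, 1.96]. The C4b ratios rest on 5, 10, 5 and 6 cells with a C4b UMI. C3 gave 0.741 [0.533, 1.02] and 1.90 [0.956, 3.84], and Cfb had 0 UMIs in every library of this class. In fibroblasts, C3 and C4b gave ratios of 0.897 to 1.23 for the same comparisons. These intervals cover counting error only, and a difference between mice cannot be told apart from one between libraries.

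Genes with the most similar pattern were ranked by Pearson correlation of log2 levels over 57 class and library sums, which share 4 libraries, among 8837 genes. For the mean of the C1q chains these were Fcrls (0.94), H2-M2 (0.88), Ccl12 (0.88) and Cd163 (0.86), and the same genes led for C3ar1. C3 was most like Rhou (0.82) and Tnfaip6 (0.81). C4b was most like Olfml3 (0.93), Cxcl14 (0.90) and Serping1 (0.90), the C1 inhibitor. Cfp was most like Spi1 (0.95), the gene of PU.1, followed by Milr1 (0.93), Alox5ap (0.93) and Tyrobp (0.93). C5ar1 was most like Fcgr4 (0.84) and P2ry13 (0.84), and Cfb reached only 0.77, with Slc39a14. Ccl12 was among the markers that named interstitial macrophages, so its likeness is partly built in.

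Of 48 other complement genes on fixed lists, 44 were listed in the files. By UMIs, a count that also depends on cell number, adventitial fibroblasts held the largest share of the C1 and lectin pathway list, 26.5%, with the C1 proteases C1ra at 620 to 810 CPM and C1s1 at 893 to 1102, and the lectin Colec12 at 334 to 641. They also held the largest share of the soluble regulators, 34.7%, with Serping1 at 3216, 2780, 4262 and 4114 CPM. In each of these lists 3 genes had enough UMIs and 0 passed 2-fold in any of the 4 comparisons. Of all genes in adventitial fibroblasts, 2.65% were past 2-fold higher and 11.7% lower between HSW and NW. Between HSK and NK the shares were 3.57% and 15.0%. They were 3.67% and 3.03% for NK against NW, and 2.46% and 2.54% for HSK against HSW. With 3 genes a list, 0 calls cannot be told apart from these shares. Alveolar type 2 cells held Hc, the gene of C5, at 2189, 2219, 2243 and 1952 CPM. They held 94.7% of the UMIs of the list of C2, C4a, Cfd and Hc. Of these 4 genes only Hc had enough UMIs there. The share therefore describes Hc and not convertase genes as a group. Alveolar type 2 cells also held C6, a terminal pathway component, at 216, 189, 140 and 115. Alveolar macrophages, the class with most UMIs, held the largest share of the UMIs of both lists of membrane proteins, 27.5% for regulators and 65.4% for other receptors. Among other receptors Cd93 was higher in HSW than in NW at 2.06 [1.76, 2.42], with 1.96 [1.71, 2.23] between HSK and NK, and Itgam, a chain of complement receptor 3, was lower at 0.292 [0.185, 0.448] and 0.282 [0.190, 0.410], beside the shares of all genes of that class given with C4b. Among membrane regulators Cd55, which speeds decay of the convertases, gave 0.321 [0.173, 0.564] and 0.356 [0.240, 0.519] at 1.61 to 8.17 CPM, and Cd59a gave 0.477 [0.230, 0.948] for NK against NW from 14 and 26 UMIs. Cr2 gave 0.175 [0.0330, 0.599] for HSK against NK from 3 and 18 UMIs, while Cr1l stood at 76.4 to 84.6 with no ratio past 2-fold.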

How the data were processed

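Per the labels, fresh lungs were digested, red cells lysed, and polyA libraries made on a microwell chip (GEXSCOPE). The deposited matrices held raw UMI counts for each gene and cell, not normalized. The submitters' processing notes name STAR 2.6.1a, cutadapt 1.17, Scanpy and featureCounts 2.0.1, with GRCm38 (mm10); settings, strand and multi-mapping rules are not given in the sources used here. The lowest total per cell was 3775, 3182, 4230 and 4726 UMIs in NW, NK, HSW and HSK.

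Cells with under 200 genes or over 20% mitochondrial UMIs were removed (1 in NK, 1 in HSW). Cells were clustered with scanpy 1.11.5 (2000 variable genes, complement genes left out, 40 components, 20 neighbours, leidenalg 0.10.2 at resolution 1). Scrublet called 1, 2, 14 and 24 cells, too few, so cells were removed in which a second lineage exceeded 0.15 of its reference with at least 3 UMIs. Clusters were named from fixed markers with at least 3 detected and other lineages under 0.07 of reference, and with a specific marker among the leading genes unless the class score reached 0.6. Dendritic and interstitial macrophage clusters were split again. Lineage genes and thresholds were set, in several versions, after clusters were seen, on purity and before any ratio was computed. The members and lists were chosen with earlier results of these data known. Unnamed clusters held 7.72, 9.82, 4.35 and 5.24% of the cells kept.

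UMIs were summed by class and library. Levels have exact Poisson intervals, ratios exact conditional binomial (Clopper-Pearson) intervals, and shares Clopper-Pearson intervals, all 95% and covering counting error only. A ratio is past 2-fold when it exceeds 2 in either direction with an interval that excludes 1 and at least 20 UMIs in the pair. TMM factors came from edgeR 4.0.16, with no test. The ratio script was tested on simulated data. For the genes named as alike, the rule took the 4 highest correlations per member among genes reaching 50 CPM, with 1 added before log2; for other complement genes, up to 4 per list by UMIs. Coordinates are from GENCODE vM21, and promoters of 6 of the 9 members were in the RefSeq table. A gene of the soluble regulator list is not reported here by name.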

Additional observations from a re-analysis of the deposited data

Results flagged for a closer look

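In 5 combinations of gene and class the knockout effect had opposite directions under normoxia and under HySu, each with a counting interval that excludes 1. The difference between the 2 effects was not tested, since each rests on 1 library a group. C1qc in classical monocytes gave 0.503 for NK against NW and 2.92 for HSK against HSW, from 12 and 43 UMIs and from 19 and 22 UMIs. C3 gave 1.24 and 0.873 in alveolar macrophages, 1.06 and 0.896 in classical monocytes, and 0.913 and 1.13 in adventitial fibroblasts. These ratios are without TMM scaling. For NK against NW in classical monocytes, the median of all genes was 0.067 on the log2 scale. The 1.06 lay close to that median, so no direction is read from it. Cfp in conventional dendritic cells type 2 gave 0.76 and 1.19. The C3 and Cfp pairs lie within 2-fold in both directions.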

How the results depend on the processing

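The class with the highest level was the same for all 9 members under the 7 alternatives tried. Counts of pairs of member and class past 2-fold moved more. For HSW against NW, 17 became 29 with no cells removed, 29 with Scrublet calls alone removed, 7 with cells thinned, 11 with clusters weighted equally and 11 with at least 50 UMIs. For NK against NW, 13 became 20, 20, 8 at resolution 1.5 and 5 with at least 50 UMIs. For HSK against HSW, 10 became 17, 17, 6 with cells thinned and 2 with at least 50 UMIs. For HSK against NK, 23 became 37, 35 and 14 at resolution 1.5. With no cells removed or Scrublet calls alone, mixed cells of the split clusters have no sub-cluster and stayed out. Ratios that turned were C1qb and C1qc in cDC2, HSW against NW, at 0.948 and 0.741 at resolution 1.5; C1qb in dendritic cells type 1, HSW against NW, at 1.67, C1qb and C1qc in T and NK cells, HSK against HSW, at 0.904 and 0.138, and C1qc in T and NK cells, HSK against NK, at 0.862, with clusters weighted equally; C1qb in ciliated cells, NK against NW, at 0.906 with cells thinned; and C3 in ciliated cells, HSK against NK, at 1.11 under TMM. Beyond fewer cells or UMIs, the cause was not tested. At resolution 1.5 only 56 of 63 pairs past 2-fold had a value, and 41 of these were still past it. Of the 63, 51 were still past it under TMM and 34 with cells thinned. The C1qa share in interstitial macrophages, whose alternatives were chosen after seeing the data, kept the normoxia libraries at 35.3% or more and the HySu libraries at 28.7% or less in each. No paired analysis was possible because each group is 1 library.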

Other observations

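Several clusters that met no class name carried C1q and lie outside the comparisons above. A cluster of 54 cells led by Mmp12, Saa3, Ccl24 and Arg1 held C1qb at 3298 CPM, and its cells numbered 5, 11, 19 and 19 in the order NW, NK, HSW and HSK. Its C1qa share of C1q UMIs was 42.7% in NW and 38.9% in NK, against 25.5% in HSW and 24.3% in HSK. A cluster of 47 cells led by Retnla, Fcrls and Mgl2 held C1qb at 1406 CPM and had 25, 18, 0 and 4 cells. A cycling cluster of 35 cells, led by Ube2c, Birc5 and Top2a, held C1qb at 1388 CPM, with a C1qa share of 40.8, 35.3, 28.8 and 35.7%, so in HSK it did not follow the low share of interstitial macrophages. A cluster of 203 cells with markers of both monocytes and neutrophils held C3 at 467 CPM.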
